A study of Mus musculus with 16 samples.

Results

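The 9 genes described here encode the largest proteins of the cardiac sarcomere and the proteins that anchor them at its ends and its middle: Ttn, Nebl, Myom1, Myom2, Mybpc3, Ldb3, Tcap, Myoz2 and Actn2. They were picked by gene symbol from a table of 35682 genes, and all 9 were among the 10945 genes with enough counts to be tested. RNA was measured in ventricular myocytes of 16 mice that had undergone transverse aortic constriction (TAC), a narrowing of the aorta that puts the left ventricle under pressure load, and were studied 9 weeks later. 8 of the mice were wild type (WT) and 8 were littermates with the transgene named B3AR-Tg, so both groups carried the surgery and differed by genotype. Mice without TAC were not analysed here. The labels give no age, strain or sex, and do not name the promoter or the cells that drive the transgene. The myocytes were isolated by perfusing the heart on a Langendorff apparatus, and the labels call the 8 libraries of a genotype biological replicates.

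The libraries held between 5985335 and 14365864 counts, and the least abundant member still had 3104 counts in its lowest library. The mouse gene Adrb3, which encodes the beta-3 adrenergic receptor, had 0 to 4 counts in WT and 0 to 3 in B3AR-Tg, so the mouse gene's counts did not separate the genotypes. All 10 cardiomyocyte markers examined were detected, with a summed level of 47625 to 61699 CPM (a gene's counts relative to the scaled total of its library) in WT and 55322 to 65911 CPM in B3AR-Tg. Of these 10 markers 1 rose, Ryr2 (log2 fold change 0.46, edgeR adjusted p = 0.0359), and 1 fell, Tnnc1 (-0.27, 0.0431). An unadjusted p under 0.05 was reached by 4 of them. The 6 fibroblast markers summed to 29.1 to 74.9 CPM in WT and 8.91 to 40.9 CPM in B3AR-Tg. The 6 endothelial markers summed to 111 to 158 CPM in WT and 46.9 to 193 CPM in B3AR-Tg, and the 6 leukocyte markers to 4.03 to 10.5 CPM and 0.706 to 5.36 CPM, with the T cell marker Cd3e at 0 counts. Of the tested fibroblast markers 2 of 5 fell (Dcn and Col1a1), and of the endothelial ones 2 of 6 (Pecam1 and Emcn; 5 of 5 and 4 of 6 had an unadjusted p under 0.05, and all 11 were lower), by the same edgeR test as the members, while 0 of 5 mural, 0 of 2 leukocyte and 0 of 3 atrial markers passed (2, 1 and 0 at an unadjusted p under 0.05, and 0 by DESeq2 and limma voom). Over all 10945 tested genes, 537 passed in edgeR and 2117 had an unadjusted p under 0.05. Genes that mark skeletal muscle fibres, apart from Ckm, which heart also expresses, had at most 14 counts in any library.

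The sarcomere is the contractile unit of striated muscle, bounded by Z-discs, where actin filaments of neighbouring sarcomeres are crosslinked, and centred on the M-band, where myosin filaments are held in register. Titin spans from the Z-disc to the M-band as a molecular spring. It is capped by telethonin at the Z-disc and bound by the myomesins at the M-band. Mutations in several of these genes, among them Ttn, Mybpc3, Ldb3 and Actn2, are known causes of cardiomyopathy.

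Promoter sequence was at hand for 7 of the 9 members, in 11 windows of the 250 bases before a start site (RefSeq, GRCm38.p6). Myom2 and Tcap had no window and were not searched. Each window was searched on both strands for the 10-base MEF2 site, bound by a muscle transcription factor family, for the 10-base CArG box, bound by serum response factor, for the MCAT element of cardiac genes, spelled CATTCC, and for a site of GATA factors, spelled AGATAA. The 4 windows below are shown because their genes are the most abundant member (Ttn), the pair whose levels varied most closely together (Myom1 and Mybpc3) and a member that differed between genotypes (Myoz2). They are written 5′ to 3′ on the gene's strand, with motif matches in capitals.
Ttn, chr2:76982548-76982797, minus strand: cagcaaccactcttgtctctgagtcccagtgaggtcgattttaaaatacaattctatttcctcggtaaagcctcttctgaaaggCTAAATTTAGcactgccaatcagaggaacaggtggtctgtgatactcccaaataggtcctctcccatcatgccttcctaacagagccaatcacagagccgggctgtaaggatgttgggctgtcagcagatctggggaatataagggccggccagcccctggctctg
Mybpc3, chr2:91117894-91118143, plus strand: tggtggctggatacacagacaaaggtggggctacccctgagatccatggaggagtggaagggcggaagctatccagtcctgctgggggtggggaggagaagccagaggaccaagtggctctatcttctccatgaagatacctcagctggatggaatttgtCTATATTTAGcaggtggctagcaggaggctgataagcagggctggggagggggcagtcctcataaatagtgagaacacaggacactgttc
Myom1, chr17:71019307-71019556, plus strand: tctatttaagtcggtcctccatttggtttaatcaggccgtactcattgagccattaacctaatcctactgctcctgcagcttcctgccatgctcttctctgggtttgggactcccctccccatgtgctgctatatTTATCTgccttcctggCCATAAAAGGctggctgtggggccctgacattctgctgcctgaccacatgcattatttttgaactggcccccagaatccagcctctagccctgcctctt
Myoz2, chr3:123034988-123035237, minus strand: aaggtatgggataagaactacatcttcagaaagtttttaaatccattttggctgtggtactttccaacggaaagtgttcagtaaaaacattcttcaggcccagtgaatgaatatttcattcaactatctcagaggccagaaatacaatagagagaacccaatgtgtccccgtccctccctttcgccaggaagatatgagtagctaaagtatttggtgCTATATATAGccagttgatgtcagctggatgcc
A MEF2 match lay at -166 to -157 from the start in Ttn, at -90 to -81 in Mybpc3 and at -33 to -24 in Myoz2. Such a match was present in 2.92% of 32851 windows of the same length. Myom1 had a CArG box at -99 to -90 and a GATA match at -115 to -110. The CArG box was also matched in Ldb3 and Nebl, and the GATA site in Nebl. CArG boxes occurred in 1.47% of all windows, GATA matches in 9.99% and the MCAT element, matched only in Nebl among the members searched, in 12.6%. 6 of the 7 members had at least 1 match, the exception being Actn2, and no match overlapped one of another motif. These are letter matches, and binding was not measured.

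Of the 9 members, 2 differed between genotypes at an adjusted p under 0.05, and both fell in B3AR-Tg: Myom2, the M-band protein also called M-protein, and Myoz2, the Z-disc protein calsarcin-1. Among all genes tested, 4.91% passed this threshold, 2.88% as lower and 2.03% as higher in B3AR-Tg (537 genes, 315 lower and 222 higher). Scaling by library size alone called 511 genes and turned that split to 165 lower and 346 higher. The unadjusted p was under 0.05 for 5 of the members, the other 3 being Myom1, Mybpc3 and Tcap. Over all genes it was under 0.05 for 2117 of the 10945 tested. The median log2 fold change was -0.01 over the members and 0.006 over all tested genes. Fold changes, standard errors and p-values are from edgeR's quasi-likelihood test, with Benjamini-Hochberg adjustment over all 10945 genes and a positive sign where B3AR-Tg was higher. In bulk RNA, fewer cells of a type and less RNA per cell cannot be told apart.

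**Figure D1:**
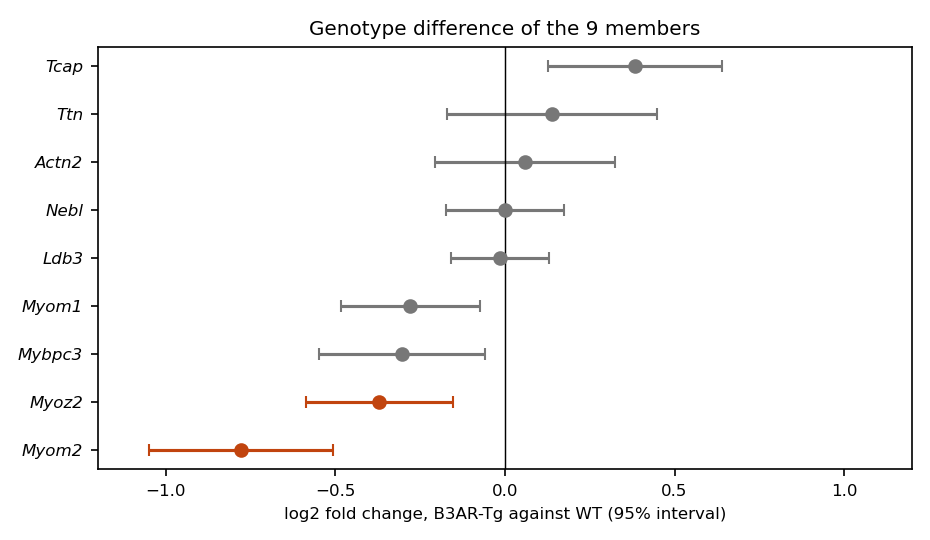
Log2 fold change of each member in B3AR-Tg against WT (x axis, log2 units; 8 animals per genotype), with 95% intervals as bars. Myom2 and Myoz2, drawn in orange, passed the adjusted threshold, and the intervals of Ttn, Actn2, Nebl and Ldb3 include 0.

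Titin, the giant spring protein, was the fourth most abundant tested gene by counts. Ttn ranged from 24582 CPM through a median of 36179 to 47591 CPM in WT, and from 25478 through 37240 to 57322 CPM in B3AR-Tg. The ranges overlapped almost wholly, with 1 transgenic animal above every WT animal and 1 WT animal below every transgenic one. The difference was 0.14 ± 0.15 (log2 fold change ± SE, adjusted p = 0.655), with a 95% interval of -0.17 to 0.45. Over the 16 fits that each left out 1 animal the value ran from 0.05, without B3AR-Tg replicate 1, to 0.21, with an adjusted p of 0.413 to 0.908. With an offset for gene length it was 0.005. Ttn itself entered the curve behind that offset, so this value cannot separate length from genotype. Ttn alone held 2.29% to 4.60% of a library's counts in WT and 2.60% to 5.96% in B3AR-Tg, and the 9 members together 3.23% to 5.88% and 3.51% to 6.88%. The table gives 1 value per gene, so the long and short isoforms of titin were not measured apart.

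Nebl encodes nebulette, a Z-disc relative of the skeletal muscle ruler protein nebulin that binds the actin filament. It measured 497, 569 and 633 CPM as lowest, median and highest value in WT, and 452, 572 and 684 CPM in B3AR-Tg. The groups overlapped, and the means were 567 ± 45.2 (SD, n = 8) and 567 ± 71.9 CPM. The 95% interval of the log2 fold change ran from -0.17 to 0.17 (adjusted p = 1.00).

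At the M-band, the myomesins crosslink myosin and titin. Myom2 measured 1365, 1577 and 2660 CPM as lowest, median and highest value in WT, and 766, 1036 and 1211 CPM in B3AR-Tg. Every transgenic animal lay below every WT animal, a separation that 0.448% of all tested genes showed in either direction. Myom2 fell by 0.78 on the log2 scale (SE 0.13, adjusted p = 0.00348, 95% interval -1.05 to -0.51), to 0.583 of the WT level. A non-myocyte covariate was formed from the tested fibroblast, endothelial, mural and leukocyte markers. It was the mean over these markers of log2 CPM, each less its own mean. With this covariate the log2 fold change of Myom2 was -0.80 and the adjusted p 0.0604, in a fit that called 33 genes in all. All tested fibroblast and endothelial markers in the covariate were lower in B3AR-Tg, so this fit cannot separate marker level from genotype. A cause was not tested.

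Myom1, which encodes myomesin-1 and is present in all striated muscle, spread over 1370, 1564 and 2135 CPM in WT and over 1153, 1365 and 1455 CPM in B3AR-Tg. All 8 transgenic animals were below the WT median and 5 were below the lowest WT animal, while 4 WT animals exceeded every transgenic one. Its log2 fold change of -0.28 ± 0.10 (SE) did not pass (adjusted p = 0.111). The WT animals varied more, with an SD of 299 CPM against 87.9 CPM, and the spread was not tested.

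**Figure D2:**
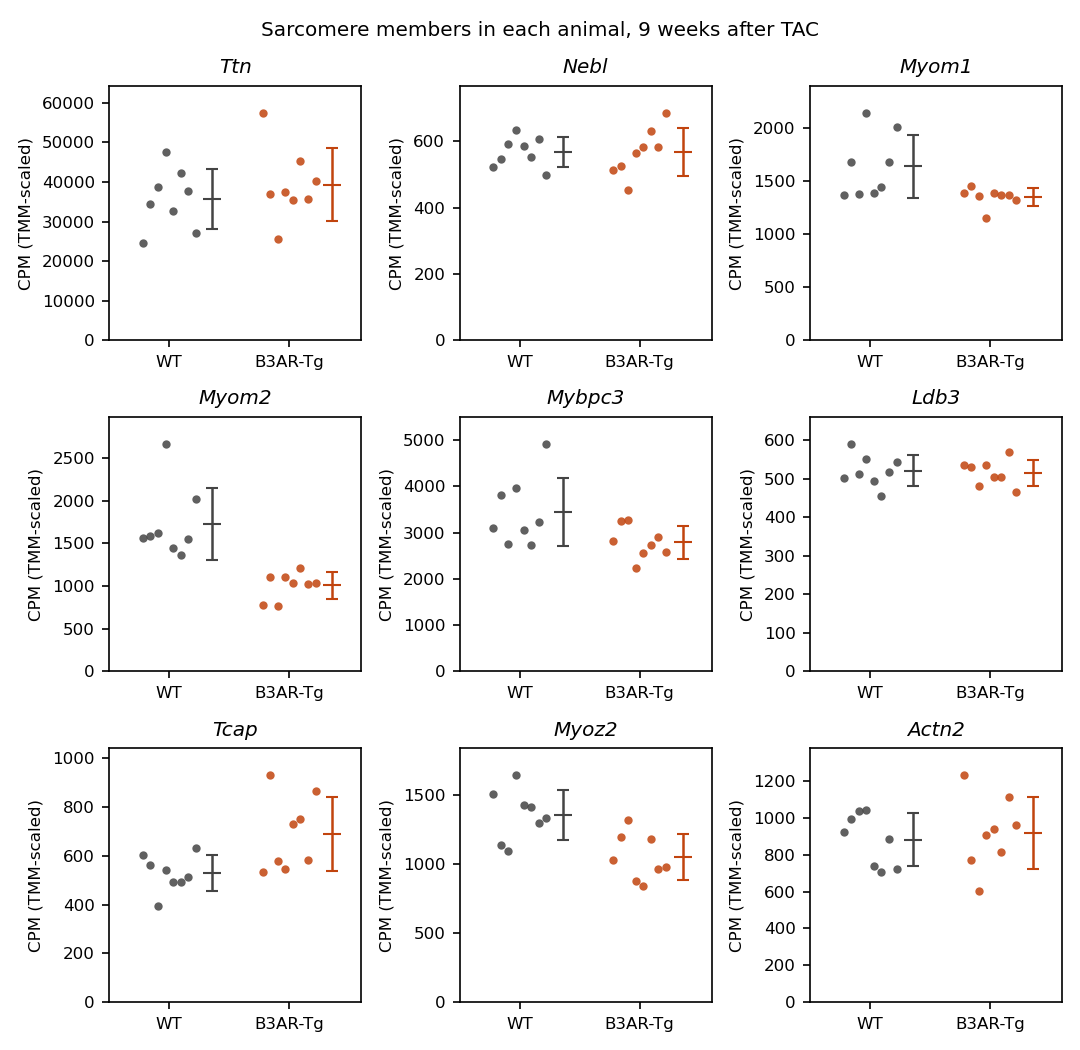
Level of the 9 members in each of the 16 animals (y axis, CPM after TMM scaling, from 0; points are animals, bars the mean ± SD of 8 animals). The genotypes separate fully for Myom2, partly for Myoz2, Myom1 and Tcap, and overlap for Ttn, Nebl, Ldb3 and Actn2.

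The ratio of the 2 myomesins within a library does not depend on how libraries are scaled. WT animals had 1.05 Myom2 counts per Myom1 count (geometric mean) and B3AR-Tg animals 0.739. The mean log2 ratio was 0.07 ± 0.16 (SD, n = 8) in WT and -0.44 ± 0.27 in B3AR-Tg, and the means differed by -0.50 (two-sided exact permutation p = 0.000622 over 12870 splits, adjusted over 4 ratios 0.00249). 7 of the 8 transgenic animals had a lower ratio than any WT animal, so Myom2 was lower by more than Myom1. Because Myom2 was already known to be lower, this ratio describes the pair and is not separate evidence for the difference in Myom2.

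Mybpc3 encodes cardiac myosin-binding protein C, which decorates the thick filament and tunes crossbridge cycling. It measured 2730, 3172 and 4909 CPM as lowest, median and highest value in WT, and 2234, 2777 and 3280 CPM in B3AR-Tg. 6 of 8 transgenic animals were below the WT median, and 3 WT animals stood above every transgenic one. The log2 fold change of -0.30 ± 0.12 (SE) did not pass (adjusted p = 0.153), with a 95% interval of -0.55 to -0.06.

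Among the Z-disc members, Myoz2 encodes calsarcin-1, which binds alpha-actinin and the phosphatase calcineurin, a known driver of hypertrophic growth. It measured 1096, 1378 and 1645 CPM as lowest, median and highest value in WT, and 843, 1007 and 1324 CPM in B3AR-Tg. All 8 transgenic animals were below the WT median and 5 were below every WT animal. Myoz2 fell by 0.37 on the log2 scale (SE 0.10, adjusted p = 0.0436). This call lies close to the threshold, and over the 16 fits that each left out 1 animal the adjusted p ran from 0.0206 to 0.104. It was lost in 11 of them, without WT replicate 1, 4, 5, 6, 7 or 8 or B3AR-Tg replicate 1, 4, 5, 7 or 8. It was also lost under library-size scaling (0.0762), after thinning to equal depth (0.0510) and without a filter on low counts (0.0848). With the non-myocyte marker covariate Myoz2 had a larger log2 fold change, -0.56, and an adjusted p of 0.0622.

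Tcap encodes telethonin, the small protein that joins the ends of 2 titin molecules at the Z-disc. It measured 393, 527 and 632 CPM as lowest, median and highest value in WT, and 535, 655 and 928 CPM in B3AR-Tg. All 8 transgenic animals were above the WT median and 4 were above every WT animal, which is the opposite side from Myoz2. The log2 fold change of 0.38 ± 0.12 (SE) did not pass (adjusted p = 0.0767). It did pass under DESeq2 (0.0370), limma voom (0.0259), library-size scaling (0.0469), an offset for gene length (0.0422) and without B3AR-Tg replicate 1 (0.0435). With the non-myocyte marker covariate the log2 fold change of Tcap was 0.20 (adjusted p = 0.586), and its adjusted p ran from 0.0259 to 0.586 over all alternatives.

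Actn2 and Ldb3 overlapped between the genotypes. Actn2, the alpha-actinin that crosslinks actin at the Z-disc, measured 705, 904 and 1043 CPM as lowest, median and highest value in WT, and 603, 924 and 1229 CPM in B3AR-Tg. The log2 fold change was 0.06 ± 0.13 (SE, adjusted p = 0.845), with a 95% interval of -0.21 to 0.32. With the non-myocyte marker covariate it was 0.29 (adjusted p = 0.392), and without B3AR-Tg replicate 1 it was -0.009. Ldb3, which encodes the PDZ and LIM domain protein Cypher that binds alpha-actinin, measured 457, 514 and 590 CPM in WT and 466, 518 and 570 CPM in B3AR-Tg. All transgenic values of Ldb3 lay within the WT range, and the 95% interval of the log2 fold change was -0.16 to 0.13 (adjusted p = 0.943).

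The other three ratios, each of a Z-disc protein to a protein it binds, did not differ between genotypes at the adjusted threshold. Myoz2 to Actn2 had a mean log2 ratio of 0.63 ± 0.34 (SD, n = 8) in WT and 0.21 ± 0.50 in B3AR-Tg (two-sided exact permutation p = 0.0701, adjusted 0.140). It passed only without B3AR-Tg replicate 3, the transgenic animal with the highest ratio (difference -0.55, exact permutation, adjusted p = 0.0264). Tcap to Ttn differed by 0.23 (exact permutation p = 0.328, adjusted 0.437), with 7 of 8 transgenic animals above the WT median, and Ldb3 to Actn2 by -0.06 (exact permutation p = 0.637). The Tcap to Ttn difference was 0.15 without WT replicate 3, 0.36 without B3AR-Tg replicate 1 and 0.37 between medians, and did not pass in any of these.

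**Figure D3:**
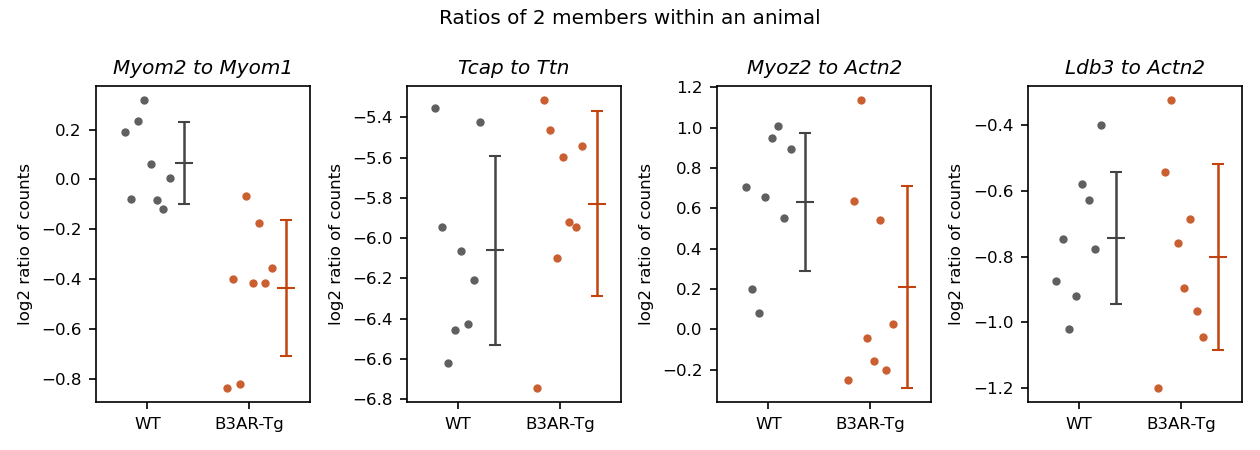
Log2 ratio of the counts of 2 members within each animal (y axes, log2 units, scaled separately per panel; points are animals, bars the mean ± SD of 8 animals). Only for Myom2 to Myom1 do the genotypes nearly separate, with 7 of 8 transgenic animals below all WT animals.

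Levels were compared between genes per kilobase of exon sequence. The order of mean levels in WT was Myoz2 at 1150 ± 155 CPM per kb (SD, n = 8), Mybpc3 at 828 ± 178, Tcap at 557 ± 78.5, Myom2 at 340 ± 83.3, Ttn at 314 ± 67.0, Actn2 at 292 ± 47.1, Myom1 at 288 ± 52.7, Ldb3 at 85.4 ± 6.63 and Nebl at 54.8 ± 4.37. The ranges of 1 SD around the means of Myoz2 and Mybpc3 overlapped, as did those of Myom2, Ttn, Actn2 and Myom1. In B3AR-Tg, Myoz2 was at 890 ± 142 CPM per kb, Tcap at 727 ± 161 and Mybpc3 at 671 ± 85.1, and the 1 SD ranges of these 3 also overlapped. Myom2, at 198 ± 31.0 CPM per kb, stood in that group below Ttn (346 ± 80.8), Actn2 (304 ± 65.1) and Myom1 (238 ± 15.5), and of these 3 only the 1 SD range of Myom1 overlapped its own. Titin's exons summed to 113588 bases against 948 for Tcap, and Ttn ranked 4 by CPM and 113 by CPM per kb among the tested genes. The 1 SD ranges above are between animals and do not compare 2 genes within an animal. Within animals, Myoz2 per kb was above Mybpc3 in every B3AR-Tg animal. The same held in every WT animal except replicate 8 (1133 against 1179 CPM per kb). The order of genes was not tested.

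The members did not vary as a block. Over the 16 animals, after the mean of each genotype was removed, 24 of the 36 pairs had a positive Pearson r of log2 CPM, with a median of 0.19. The closest pair was Myom1 and Mybpc3 (r = 0.83), followed by Myom1 and Myom2 (0.59). Ttn went with Actn2 (0.54) and Nebl (0.53), whereas Myoz2 and Actn2 ran against each other (-0.49). Within WT, Myom1 and Myom2 had r = 0.85 and within B3AR-Tg -0.16, over 8 animals each, and this difference was not tested. The pairs share libraries and their scaling, so these values are a description. The 5 other genes with the highest mean r to the members were Usp7 (0.45), Ccser2 (0.44), Calu (0.43), Chd4 (0.43) and Tmem71 (0.43), over the same 16 animals.

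**Figure D4:**
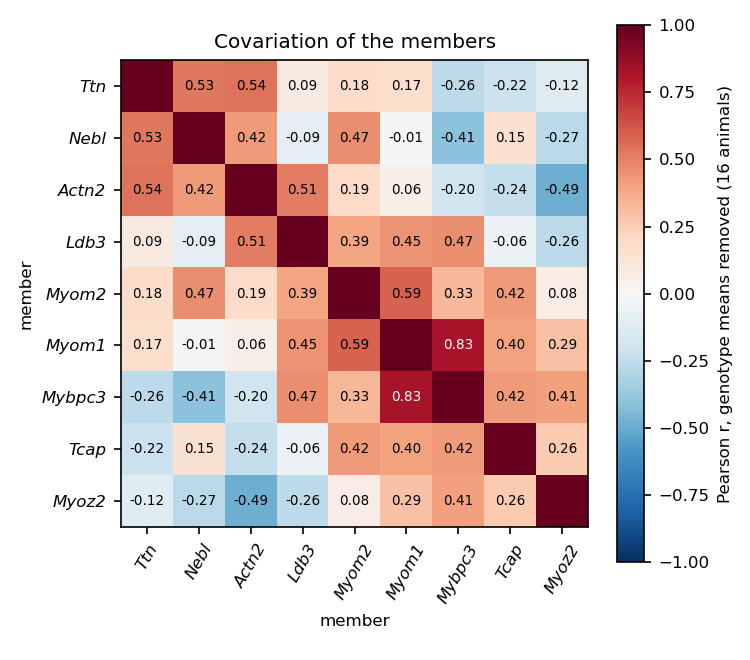
Pearson r of log2 CPM between each pair of members over 16 animals after removal of genotype means (both axes list the members, colour and printed value give r from -1 to 1). Myom1 and Mybpc3 are the closest pair at 0.83 and Myoz2 and Actn2 the most opposed at -0.49.

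Pressure load on the ventricle is known to raise the natriuretic peptides Nppa and Nppb, the slow myosin Myh7 and skeletal actin Acta1. All 4 fell in B3AR-Tg, with log2 fold changes of -3.99, -1.13, -2.03 and -1.74 (edgeR, adjusted p = 0.00362, 0.0223, 0.00632 and 0.0245). The call of Nppb was lost without WT replicate 4 or B3AR-Tg replicate 5 (adjusted p up to 0.0532), and that of Acta1 without WT replicate 2 or B3AR-Tg replicate 5 (up to 0.0562). With the non-myocyte marker covariate all 4 calls were lost (adjusted p = 0.105, 0.187, 0.146 and 0.280). The mean of the 4 genes, as a score in log2 units centred on all 16 animals, was 0.16, 0.87 and 2.17 as lowest, median and highest value in WT and -2.01, -1.18 and 0.28 in B3AR-Tg. Because the genotypes differed in the score, each member was set against it within a genotype only.

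In WT, Mybpc3 followed the score with r = 0.90 (n = 8, exact permutation p = 0.00268, adjusted over 18 relations 0.0241), and Spearman's rho was 0.86 (exact permutation p = 0.0107, adjusted 0.126). Without WT replicates 2 and 4, the pair farthest from the median score, r was 0.96 (n = 6, exact permutation p = 0.00833, adjusted 0.075). That value no longer passed the threshold after adjustment. Ldb3 had r = 0.87 (exact permutation, adjusted p = 0.0241) and rho 0.81 (exact permutation, adjusted p = 0.126), and without the same animals r was 0.75 (n = 6, exact permutation p = 0.117, adjusted 0.196), lower and no longer past the threshold. The WT scores left a wide gap between 5 animals at 0.975 or less and 3 at 1.98 or more, and with fewer than 6 animals on either side no r is given within them. Without WT replicates 2 and 4, replicate 8 was the only WT animal above this gap, so each r without that pair still holds 1 extreme score.

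Myom1, Myom2 and Tcap had r = 0.82, 0.71 and 0.71 in WT and did not pass (exact permutation, adjusted p = 0.114, 0.135 and 0.144). With scaling by library size alone these 3 became 0.90, 0.83 and 0.84 and passed (exact permutation, each adjusted p = 0.03). Ttn, Nebl, Myoz2 and Actn2 lay between -0.19 and 0.29. Without WT replicates 2 and 4, Ttn had r = -0.73 (n = 6, exact permutation p = 0.0819) and Nebl r = -0.75 (n = 6, exact permutation p = 0.0708). In B3AR-Tg none of the 9 relations passed, Mybpc3 being highest with r = 0.58 (exact permutation, adjusted p = 0.362) and rho 0.83 (adjusted 0.126). Without B3AR-Tg replicates 7 and 8, the pair farthest from the median score, Myoz2 went from r = 0.31 to 0.92 (n = 6, exact permutation p = 0.00556, adjusted 0.075) and Mybpc3 to 0.90 (exact permutation p = 0.0194, adjusted 0.117). Whether a relation differed between genotypes was not tested.

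**Figure D5:**
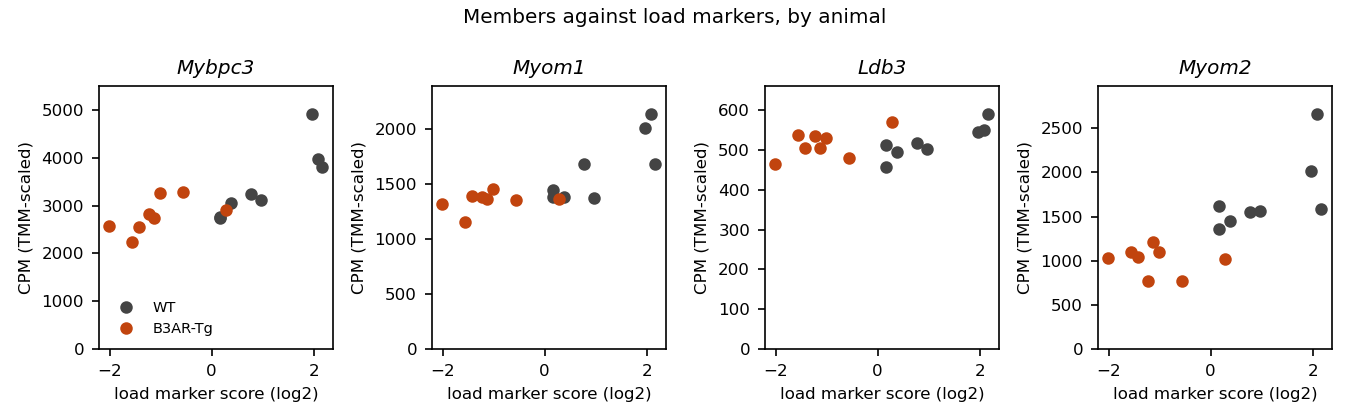
Level of 4 members (y axes, CPM after TMM scaling, from 0) against the load marker score of the same animal (x axis, mean log2 level of Nppa, Nppb, Myh7 and Acta1, centred on 16 animals). The 3 WT animals with scores of 1.98 or more include the highest values of Mybpc3, Myom1, Myom2 and Ldb3.

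Of 25 other Z-disc genes, 3 fell and 0 rose, while 2.88% of all tested genes fell and 2.03% rose. Their median log2 fold change was -0.17, against 0.006 over all tested genes. An unadjusted p under 0.05 was reached by 9 of them, against 2117 of all 10945 tested genes. DESeq2 called 6 of them and 804 of all tested genes, and limma voom 4 and 706. Synpo2l, an actin-associated protein of the Z-disc, fell by 1.37 on the log2 scale (132.9 ± 84.0 CPM in WT, 51.5 ± 25.0 in B3AR-Tg, SD, n = 8, edgeR adjusted p = 0.0176). With the non-myocyte marker covariate its log2 fold change was -0.95 and the call was lost (adjusted p = 0.294). Cfl2, the muscle cofilin that severs actin, fell by 0.32 (edgeR adjusted p = 0.0389), and Cavin4, a caveolar protein of myocytes, by 0.30 (edgeR adjusted p = 0.0232). The cofilin call was lost in 16 of 32 alternative settings, among them the fits without WT replicate 1, 2, 4, 5 or 8 or B3AR-Tg replicate 1, 2, 4, 5 or 8 (adjusted p up to 0.0919). The Cavin4 call was lost in 9, among them the fits without WT replicate 4 or B3AR-Tg replicate 5 or 8 (adjusted p up to 0.0579).

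Of 15 other genes grouped here with the M-band, among them the kinase Speg and the ubiquitin ligase Trim63, none passed in the edgeR test. Their median log2 fold change was 0.03, and where their proteins lie in the cell was not measured. 2 had an unadjusted p under 0.05, Cmya5 (log2 fold change 0.25, edgeR adjusted p = 0.133) and Smpx (-0.23, 0.156), against 2117 of all 10945 tested genes. DESeq2 called 0 of the 15 and limma voom 1, which was Cmya5.

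Of 10 tested genes that bind titin's spring region or govern splicing in muscle, 2 fell and 0 rose. Among all tested genes 2.88% fell and 2.03% rose. By sign 5 of the 10 were higher and 5 lower, and the median log2 fold change was 0.01. An unadjusted edgeR p under 0.05 was reached by 4 of them, Rbm20 included, against 2117 of all 10945 tested genes. DESeq2 and limma voom each called 2 of them, against 804 and 706 of all tested genes. The 2 that fell in edgeR were ankyrin repeat proteins that sit on titin's N2A segment and are known to respond to stretch. Ankrd1 fell by 1.16 on the log2 scale, from 3856 ± 1601 to 1722 ± 723 CPM (SD, n = 8, edgeR adjusted p = 0.0131). Ankrd23 fell by 0.92, from 695 ± 198 to 368 ± 112 CPM (edgeR adjusted p = 0.0082). With the non-myocyte marker covariate neither call held: Ankrd1 was at -0.77 (adjusted p = 0.284) and Ankrd23 at an adjusted p of 0.133. Rbm20, the main splicing factor of titin, measured 195 ± 19.3 CPM in WT and 228 ± 20.8 in B3AR-Tg and did not pass (log2 fold change 0.22, edgeR adjusted p = 0.112).

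Of 9 thick filament genes, Myh7 fell and Unc45b, a chaperone of myosin folding, rose by 0.56 on the log2 scale, from 112.8 ± 25.1 to 166 ± 50.6 CPM (SD, n = 8, edgeR adjusted p = 0.0464). The Unc45b call was lost in 17 of 32 alternative settings, with an adjusted p of up to 0.210, among them the fits without WT replicate 1, 2, 4, 5, 6 or 8 or B3AR-Tg replicate 1, 2, 3, 5 or 8. The median log2 fold change of the list was 0.08, with 6 genes higher and 3 lower by sign. An unadjusted edgeR p under 0.05 was reached by 3 of the 9, against 2117 of all 10945 tested genes. DESeq2 called 3 and limma voom 2 of the 9, against 804 and 706 of all tested genes. In edgeR 2.88% of all tested genes fell and 2.03% rose.

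Transcripts of the members' closest relatives by name were low. Neb, the skeletal nebulin, averaged 76.8 ± 74.4 CPM in WT and 80.2 ± 42.9 in B3AR-Tg (SD, n = 8). Mybpc2 averaged 20.2 and 14.2 CPM, and Actn1, Actn4, Myom3 and Mybphl stayed under 12 CPM on average in either genotype. Of these 6 tested relatives, 0 passed and 0 had an unadjusted p under 0.05 in edgeR, DESeq2 and limma voom called 0 of them, and edgeR's adjusted p ran from 0.294 (Myom3) to 0.961 (Neb). Mybpc1, Mybph, Actn3, Myoz1 and Myoz3 had at most 10 counts in any library and were not tested.

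The members span a wide range of lengths, so gene length was set beside them. The median log2 fold change of tested genes was -0.06 below 1 kb of exon sequence, which is the class of Tcap, and 0.06 at 16 kb or more, the class of Ttn. A score of 866 genes of 8 kb or more less 2414 genes under 2 kb differed by 0.05 between the genotypes (two-sided exact permutation p = 0.615). With an offset for length in each library, Ttn's log2 fold change was 0.005, Tcap's 0.43, Myoz2's -0.34 (adjusted p = 0.0235) and Myom2's -0.79 (adjusted p = 0.00201). Ttn itself entered the length curve of each library, at 113588 bases in a class of only 41 tested genes. Its value with the offset therefore cannot separate length from genotype. Of 18 relations of a member to the length score within a genotype, 1 passed, Actn2 in B3AR-Tg (r = 0.88, exact permutation p = 0.00221, adjusted 0.0397; rho 0.79, adjusted 0.206). Without B3AR-Tg replicates 2 and 3, the animals farthest from the median score, that r was 0.62 (exact permutation p = 0.244). Actn2 in WT had r = 0.76 (exact permutation, adjusted p = 0.175, rho 0.71) and Myoz2 in B3AR-Tg r = -0.79 (exact permutation, adjusted p = 0.110, rho -0.79), which was -0.28 without the same transgenic animals. Ttn had r = 0.69 with the length score in WT and 0.66 in B3AR-Tg (n = 8 each, exact permutation, both adjusted p = 0.222; rho 0.69 and 0.21). Without WT replicates 3 and 4 the WT value was 0.57. Without B3AR-Tg replicates 2 and 3 the transgenic value was -0.05, so it rests on those animals.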

How the data were processed

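The authors deposited raw counts, as whole numbers without normalization, in 1 table with genes as rows and animals as columns. The submitters' processing notes name Salmon and GRCm39; how reads were assigned to genes, and with what strand setting, is not given in the sources used here. Per the labels' protocols, myocytes were plated for 1 hour, and stranded total RNA libraries were made from 500 ng of RNA after ribosomal depletion. Genotypes and replicate numbers came from the labels. The members and gene lists were chosen with earlier results of these data known.

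Genes were kept by filterByExpr (minimum count 10) and compared in edgeR 4.0.16 (R 4.3.3) by glmQLFTest on the deposited counts, with TMM scaling, all 16 animals, no covariate, Benjamini-Hochberg adjustment and a threshold of 0.05. The SE is the absolute log2 fold change divided by the square root of F. Log2 CPM used a prior count of 2. Named genes are all members, up to 4 genes past the threshold per list, all tested relatives and the 5 genes most like the members; Cmya5, Smpx, Rbm20 and genes given only as examples of a list were added after values were seen. Exon lengths are from GENCODE M21 by gene ID, on GRCm38, and so no gene coordinates of that build are given. Libraries of a genotype differed by a chi-square of 6.03 to 58.9 per gene, beyond sampling noise. DESeq2 1.42.0, limma 3.58.1, other scalings, filters, covariates and left-out animals were tried, as were fits without Ttn in the totals and the length score, both chosen after the data were seen. Correlations and ratios used exact permutation over animals.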

Additional observations from a re-analysis of the deposited data

Results flagged for a closer look

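Myom1 in B3AR-Tg replicate 4 stood apart from the other seven transgenic animals, at 1153 CPM. The gap to its nearest neighbour on the log2 CPM scale was 0.581 of the group's whole range, above the 95% critical value of Dixon's test for 8 animals. Such a gap arises by chance in about 1 group in 20, and 28 groups were searched, so 1.4 would arise by chance.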

How the results depend on the processing

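All sign changes were of values with no call. Nebl, at -0.0003 in the reported fit, took the log2 fold change 0.0802 under library-size scaling, 0.0176 without a filter on low counts, 0.000515 with a mean CPM of at least 1, 0.0475 under limma voom, 0.0823 with the non-myocyte covariate and 0.00314 without mitochondrial genes, and -0.0380 to 0.0417 when each animal was left out. Ldb3 took 0.0601, 0.00374 and 0.0415 under library-size scaling, no filter and the covariate, and -0.0383 to 0.0170 over left-out animals. Actn2 ran from -0.00856 to 0.129 and Neb from -0.15 to 0.61 over left-out animals, Neb was -0.0216 with the length offset, and Mybphl 0.20 with the covariate. In the relations to the load score, r under library-size scaling was 0.13 for Ttn and 0.42 for Nebl in WT and 0.0326 for Actn2 in B3AR-Tg. With Nppa alone it was -0.0299 for Myom1 and 0.15 for Myom2 in B3AR-Tg, and without the pair of animals farthest from the median -0.26 for Actn2 in WT and -0.68 for Ldb3 and 0.0933 for Tcap in B3AR-Tg.

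The number of genes called, 537, became 908 at an adjusted p under 0.1, 109 under 0.01, 33 with the covariate and 272 (without WT replicate 4) to 675 (without WT replicate 3) over left-out animals. Of the members, 1 was called under 0.01, with no filter and after thinning, 0 with the covariate, and 1 to 2 over left-out animals. The log2 ratio of Myoz2 to Actn2 ran from -0.55 to -0.35 over left-out animals. Myom2 passed in 31 of 32 alternatives. The cause of these changes was not tested.

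With the replicate number as a block, 230 genes and 1 member, Myom2 (adjusted p = 0.0133), were called, and the adjusted p was 0.153 for Myoz2, 0.106 for Tcap and 0.0520 for Ankrd1. With the length offset and the block 294 genes were called, and the adjusted p of Myoz2 was 0.101 and of Tcap 0.0380. No pairing by number was seen: the deviations of same-numbered animals correlated at -0.22 to 0.09, 0 of 8 above 0.1, and 0 matched best with their own number. Such correlations cannot exclude a weak factor shared by same-numbered animals.

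The fit recovers small changes less often. On simulated counts for this comparison, with 200 of 10945 genes changed, edgeR recovered 87.5% of those changed by 1 on the log2 scale and 31.5% of those changed by 0.5.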
